A study of Mus musculus with 12 samples.

Results

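Stard4, Mmab and Coq2 are 3 genes of sterol and mevalonate-linked metabolism that were measured in the mouse hippocampus after kainate or saline. Their probe sets were found by annotation, as every probe set whose only gene symbol is Stard4, Mmab or Coq2, which gave 4 of 12411 probe sets (2 for Stard4 and 1 each for Mmab and Coq2) and 3 of 7542 named genes. The genes themselves were chosen by measured values of these same arrays. The record of the choice does not name the comparison, and the difference between arrays labelled mutant and control arrays is the one that all 3 genes show. Each comparison on these 3 genes is therefore a description. Standard errors, intervals and calls from the fit across all probe sets are printed to show the spread, and no conclusion is drawn from them.

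The study crossed genotype with treatment in 4 groups of 3 arrays, so that control arrays and arrays labelled mutant were each measured after saline and after kainate. Kainate is a glutamate receptor agonist that evokes seizures. It was given into the peritoneum at 20 mg/kg, and the tissue was taken after 1 h. The mice were littermates of both sexes, aged 5 to 6 weeks and handled for 5 days beforehand, and each array carried the pooled RNA of 3 animals. The series title names the loss of the cAMP-responsive transcription factors CREB and CREM as the mutation. For the alleles, the strain and the promoter or cell type behind the loss, the sources used here give nothing. The arrays were Affymetrix MG-U74B arrays with GCRMA summaries on a log2 scale, so that a difference of 1 is a doubling.

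Cells hold their sterol level steady through the mevalonate pathway, which builds cholesterol and also isoprenoids such as the side chain of coenzyme Q. When membrane sterol falls, SREBP2 switches on genes of synthesis, uptake and transport. In the brain cholesterol is made locally, much of it by glia. Stard4 encodes a small cytosolic START domain protein that carries sterols between membranes, and it is a known SREBP2 target. Mmab encodes the mitochondrial adenosyltransferase that makes adenosylcobalamin, the cofactor of methylmalonyl-CoA mutase, and it lies head to head with Mvk, the mevalonate kinase gene. Coq2 encodes the prenyltransferase of the inner mitochondrial membrane that joins the isoprenoid chain to the ring of coenzyme Q.

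The stretch between Mmab and Mvk is shown because one interval of 190 bases starts both an adenosyltransferase gene and a gene of the mevalonate pathway. It was taken from RefSeq sequence of GRCm38.p6 at chr5:114444074-114444263, minus strand, written 5′ to 3′ towards Mmab. Capitals mark CCAAT (the core bound by NF-Y) and GGGCGG (a GC box) on either strand.
Mmab: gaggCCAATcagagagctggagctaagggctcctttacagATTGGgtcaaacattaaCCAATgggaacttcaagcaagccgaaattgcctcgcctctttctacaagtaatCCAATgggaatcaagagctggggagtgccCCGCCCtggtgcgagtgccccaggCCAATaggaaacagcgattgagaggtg
These 190 bases held 5 CCAAT matches and 1 GGGCGG match. The full window of 250 bases before the Mmab start held 5 and 2, its other 60 bases lying inside annotated genes. Among windows of 250 bases, 33.8% of 32851 RefSeq windows held CCAAT and 32.7% held GGGCGG. The Mmab window held neither TGACGTCA, the full cAMP response element, nor its short core TGACG, nor TCACCCCA, a core of the sterol element. Among all windows 1.55% held TGACGTCA, 17.8% held TGACG and 1.34% held TCACCCCA. Every full element also contains the short core, so both shares count some of the same windows.

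The Coq2 window held 1 short core TGACG, with its first base 17 bases before the start. The 29 bases around it, at chr5:100674257-100674285 on the minus strand of GRCm38.p6, are shown with the short core in capitals because the study concerns factors that bind this element. The site lies in the 32 bases of the window that fall inside the annotated bounds of Coq2 itself, which reach further upstream than the start used for the window. The 218 bases beyond those bounds held no TGACG.
Coq2: cgtcgccctggaTGACGccaccgaccggc
The Coq2 window held no TGACGTCA, TCACCCCA, CCAAT or GGGCGG. A match of letters is a description and not a binding site. The table of promoters had an entry for Mmab and Coq2, and Stard4 is named only.

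All 12 arrays were of like brightness, with medians between 3.77 and 4.07. Arrays numbered 1 stood apart from the others in every group, so the results below are also given by array number. The probe set of Creb1, one of the targeted genes, ran from 6.83 to 7.58 in control arrays and from 7.64 to 8.47 in arrays labelled mutant, higher and not lower. That of Crem lay at background in all arrays, between 2.82 and 3.35. The sources used here do not place these probes relative to the deleted parts, so they do not check the loss, and the arrays are called labelled mutant. Of the 4 member probe sets 3 had a value over 4 in at least 3 arrays, the level asked for in the fit across 6334 probe sets. The exception was the second Stard4 probe set.

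Stard4, the sterol carrier gene, was lower in arrays labelled mutant by its brighter probe set, 116072_at. In control saline arrays its log2 values were 5.58, 6.27 and 5.84 in the order of the array numbers, against 5.34, 5.39 and 5.31 in the labelled mutant saline group. After kainate they were 5.59, 6.09 and 5.77 in control arrays against 5.27, 5.49 and 5.23 in labelled mutant arrays. The 6 control values lay above the 6 labelled mutant values, with a gap of 0.09 between both sets. The gap is narrow because the control arrays numbered 1 were low. Group means were 5.89 ± 0.347 (SD, n = 3) and 5.82 ± 0.254 in control arrays with saline and kainate, and 5.35 ± 0.0401 and 5.33 ± 0.138 in labelled mutant arrays.

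The genotype difference of Stard4 was -0.55 (1.46-fold, SE 0.181) with saline and -0.48 (1.40-fold, SE 0.181) with kainate. By array number it was -0.24, -0.87 and -0.52 with saline and -0.32, -0.60 and -0.54 with kainate. All 6 differences were below 0, which follows from the lack of overlap and adds nothing to it. Without control saline replicate 2 the saline difference was -0.36, and without control saline replicate 1 it was -0.70. Averaged over treatments the genotype difference was -0.52 (1.43-fold, SE 0.128), and -0.63 over arrays numbered 2 and 3 alone. The second Stard4 probe set, 113753_at, lay near background. It read 3.22, 4.18 and 3.81 in control saline arrays, 3.37, 3.49 and 3.53 in control kainate arrays, 3.25, 3.39 and 3.51 in labelled mutant saline arrays and 3.18, 3.29 and 3.39 in labelled mutant kainate arrays. Only 1 of its 12 values was over 4, and the genotypes overlapped. Its averaged difference of -0.27 (SE 0.131) had the sign of the first probe set, and 1 of its 6 differences by array number, 0.03 with saline, did not.

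Mmab (109473_at), the adenosyltransferase gene, went the other way and was higher in arrays labelled mutant. Its log2 values were 4.76, 3.25 and 3.65 in control saline arrays and 6.20, 5.24 and 4.89 in the labelled mutant arrays given saline. After kainate they were 4.57, 4.51 and 4.20 in control arrays and 5.72, 6.05 and 5.56 in labelled mutant arrays. No control array reached the lowest labelled mutant array, with a gap of 0.13. In control arrays the signal was close to the array medians, and 2 of the 3 control saline values were under 4, so these values were at or near background.

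The means of Mmab were 3.88 ± 0.782 (SD, n = 3) and 4.42 ± 0.201 in control arrays with saline and kainate, and 5.44 ± 0.679 and 5.77 ± 0.249 in labelled mutant arrays. The genotype difference on the log2 scale was 1.56 (SE 0.394) with saline and 1.35 (SE 0.394) with kainate, and no fold is given because of the low control signal. By array number it was 1.44, 2.00 and 1.24 with saline and 1.15, 1.54 and 1.36 with kainate. All were above 0, which follows from the lack of overlap. The average over treatments was 1.46 (SE 0.279). Arrays numbered 1 were the highest of their group with saline in both genotypes.

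Coq2 (163060_at), the coenzyme Q prenyltransferase gene, had the brightest of the 4 probe sets and was lower in arrays labelled mutant. Its log2 values were 9.36, 9.45 and 9.28 in control saline arrays against 8.40, 8.26 and 8.06 in the labelled mutant arrays given saline. After kainate they were 8.38, 9.06 and 9.30 in control arrays and 8.07, 8.35 and 8.04 in labelled mutant arrays. Within each treatment the genotypes did not overlap. Across treatments they overlapped by 0.02, through control kainate array 1 at 8.38 and labelled mutant saline array 1 at 8.40.

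The means of Coq2 were 9.36 ± 0.0827 (SD, n = 3) and 8.92 ± 0.476 in control arrays with saline and kainate, and 8.24 ± 0.170 and 8.15 ± 0.174 in labelled mutant arrays. The genotype difference was -1.12 (2.18-fold, SE 0.210) with saline and -0.76 (1.70-fold, SE 0.210) with kainate. By array number it was -0.96, -1.19 and -1.22 with saline and -0.32, -0.71 and -1.27 with kainate, so the smallest difference came from the pair with control kainate array 1. Averaged over treatments it was -0.94 (1.92-fold, SE 0.148), and -1.10 over arrays numbered 2 and 3 alone.

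**Figure D1:**
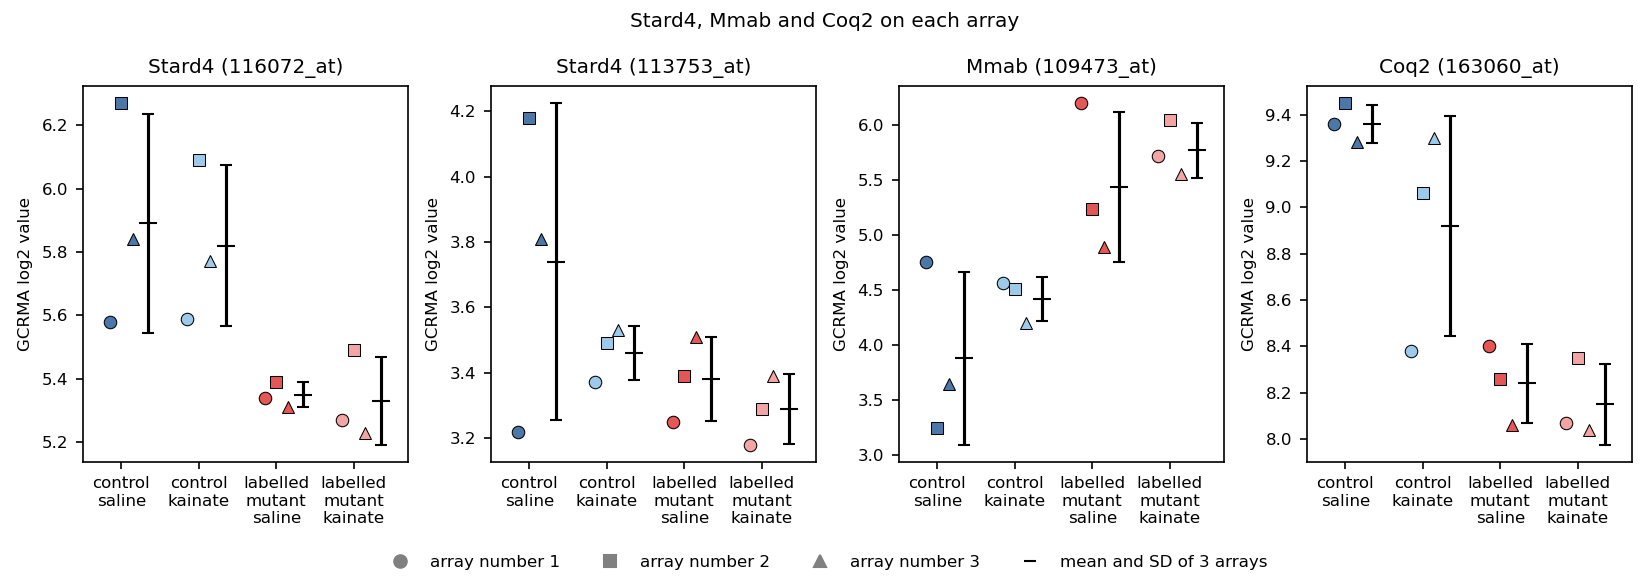
GCRMA log2 value (vertical axis, a separate range in each panel) of the 4 probe sets on each of 12 arrays by group, with symbols for the array number and bars for the mean and SD of 3 arrays. Stard4 (116072_at) and Mmab separate by genotype with no overlap, Coq2 overlaps by 0.02 through 1 control kainate array, and the second Stard4 probe set overlaps.

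In order of level, Stard4 and Coq2 ran from control saline down through control kainate and labelled mutant saline to labelled mutant kainate, and Mmab ran in the opposite order. For each of the 3 genes the step between treatments within a genotype was within the spread of the arrays, since those groups overlapped. The step from control kainate to labelled mutant saline did not overlap for Stard4 and Mmab and overlapped for Coq2.

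**Figure D2:**
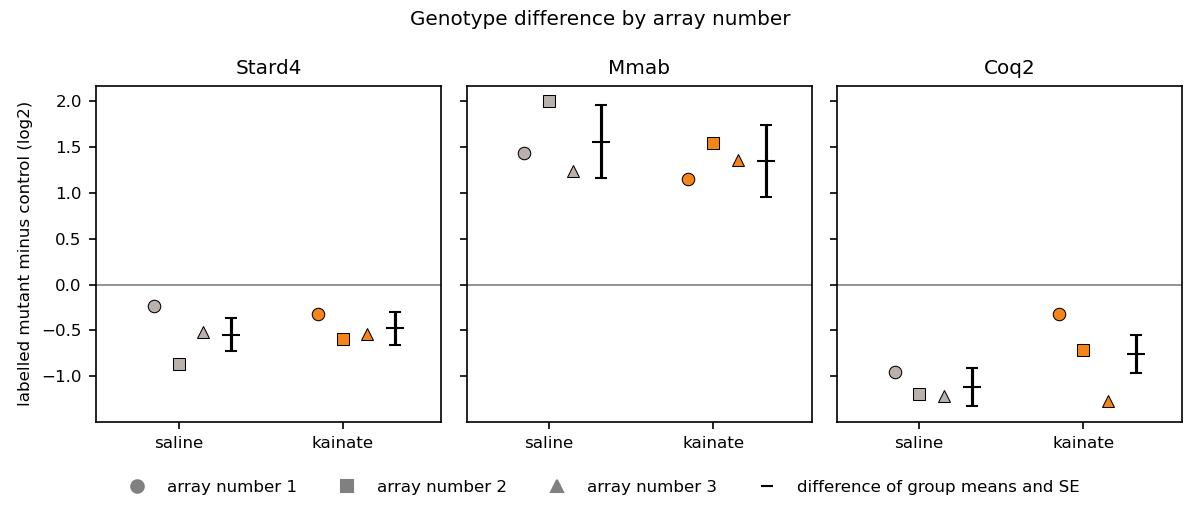
Difference of labelled mutant minus control log2 value for Stard4, Mmab and Coq2 (brighter probe set) by array number, with saline and with kainate; the bar is the difference of group means with its SE. All 12 points of Stard4 and Coq2 lie below 0 and all 6 of Mmab above 0, with the Coq2 point of array number 1 after kainate closest to 0 among its 6 at -0.32. These signs follow from the lack of overlap within each treatment.

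These counts have to be read against the whole table. The arrays of both genotypes separated without overlap for 2 of the 3 tested member probe sets, against 0.995% of all probe sets. With saline, where 3 of 3 separated, the share over all probe sets was 8.81%, and with kainate, where 3 of 3 separated as well, it was 10.7%. In the limma fit with Benjamini-Hochberg adjustment over all 6334 probe sets at 0.05, the averaged genotype comparison called Coq2 alone of the 3, with 0.253% of all probe sets called. With the replicate number as a block all 3 were called, with 2.32% of all probe sets called. Since the genes were chosen on values of these arrays, nothing is read from these counts. The fit called none of the 3 for labelled mutant against control with saline (0% of all probe sets called) or with kainate (0.0632%). The call of Coq2 was kept in 1 of 12 fits that left out 1 array, the one without control kainate replicate 1, where its difference was -1.08, and over those 12 fits the difference ran from -1.08 to -0.85. Mmab was called in 1 of these fits, without control saline replicate 1, at 1.67, and its difference ran from 1.27 to 1.67. Stard4 was called in none of them and ran from -0.59 to -0.42.

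Within 1 h the kainate and saline arrays of each genotype overlapped for all 3 genes. Stard4 differed by -0.08 (SE 0.181, 95% interval -0.48 to 0.33) between kainate and saline in control arrays and by -0.02 (SE 0.181, -0.42 to 0.39) in labelled mutant arrays. Leaving out 1 array gave -0.23 to 0.11 in control arrays and -0.09 to 0.03 in labelled mutant arrays, on both sides of 0. Coq2 differed by -0.45 (SE 0.210, -0.91 to 0.02) in control arrays and by -0.09 (SE 0.210, -0.55 to 0.38) in labelled mutant arrays. In control arrays the Coq2 differences by number were -0.97, -0.39 and 0.02, so that array number 1 gave most of the mean. Without control kainate replicate 1, and likewise over numbers 2 and 3 alone, the mean was -0.18. Without control kainate replicate 2 it was -0.52, and without control kainate replicate 3 it was -0.64. In labelled mutant arrays, leaving out 1 array gave -0.19 to -0.01.

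Mmab differed by 0.54 (SE 0.394, 95% interval -0.33 to 1.41) in control arrays and by 0.33 (SE 0.394, -0.54 to 1.20) in labelled mutant arrays. In control arrays it was 0.22 without control saline replicate 2 and 0.98 without control saline replicate 1. In labelled mutant arrays it was 0.05 without mutant saline replicate 3 and 0.71 without mutant saline replicate 1. Its differences depended on the array number, being -0.19, 1.26 and 0.55 in control arrays and -0.48, 0.80 and 0.67 in labelled mutant arrays. Number 1 was below 0 in both genotypes, and over numbers 2 and 3 alone the mean was 0.91 in control and 0.74 in labelled mutant arrays. Averaged over genotypes the kainate difference was 0.44 (SE 0.279), or 0.82 over numbers 2 and 3 alone. Whether arrays numbered 1 differ from the others by a laboratory step was not tested, and no label explains the numbers.

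The limma fit called none of the 3 genes for kainate in control arrays (0.158% of all probe sets called), in labelled mutant arrays (0.174%) or averaged over genotypes (0.410%). The kainate response was also set between the genotypes. Its genotype difference was 0.06 (95% interval -0.51 to 0.63) for Stard4, -0.21 (-1.44 to 1.02) for Mmab and 0.36 (-0.30 to 1.02) for Coq2, and 0% of all probe sets were called in that comparison. Leaving out 1 array moved it between -0.13 and 0.22 for Stard4, between -0.65 and 0.17 for Mmab and between 0.09 and 0.55 for Coq2. Comparisons that share an array group, such as both genotype comparisons and the response difference, are not independent of each other.

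**Figure D3:**
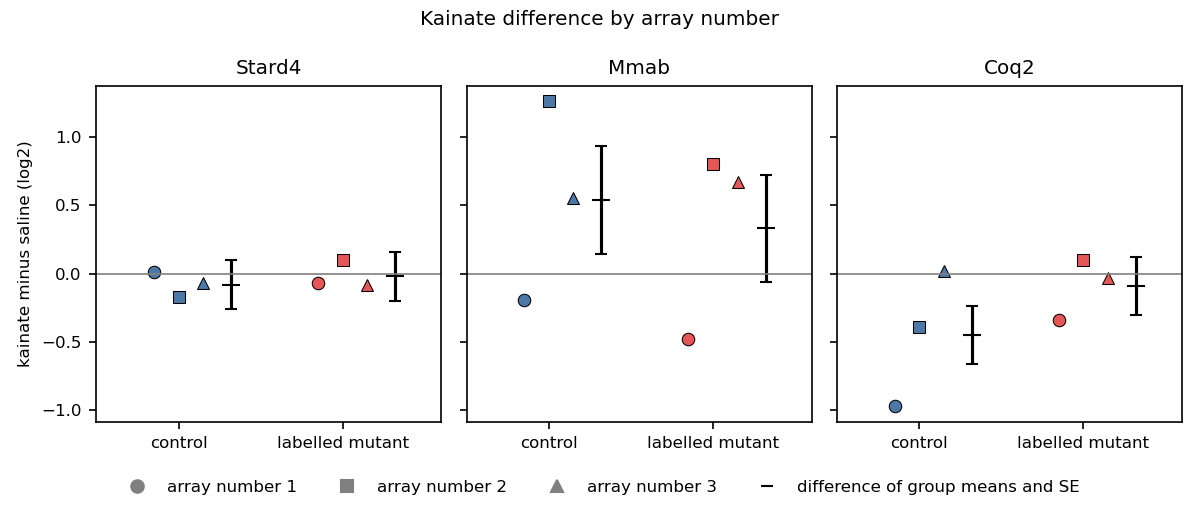
Difference of kainate minus saline log2 value for Stard4, Mmab and Coq2 (brighter probe set) by array number in control and labelled mutant arrays; the bar is the difference of group means with its SE. The 6 Stard4 points lie between -0.17 and 0.10, Mmab lies below 0 for array number 1 and above 0 for numbers 2 and 3 in both genotypes, and the lowest Coq2 point is control array number 1 at -0.97.

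The other genes of these pathways were taken from 7 lists with 122 genes, of which 62 were on the array and 50 had a tested probe set, a gene being represented by its brightest one. None of the 50 passed in any of the 7 comparisons by limma with Benjamini-Hochberg adjustment. At an unadjusted p under 0.05 there were 3 of 50 for genotype averaged over treatments and 6 for kainate averaged over genotypes, against 410 and 930 of 6334 probe sets. With the replicate number as a block, 3 of the 50 (6%) were lower after kainate and 0 differed by genotype, against 7.63% and 2.32% of all probe sets called. The array holds no probe set named for Mvk, and many core enzymes of the pathway were not among the tested genes.

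Cholesterol synthesis was represented by 7 of 21 genes, of which Ggps1 (-0.05 for genotype) belongs to the isoprenoid branch. Of the 7, 6 lay below 0 in the averaged genotype comparison, beside 50.9% of all probe sets. The 7 had a median of -0.20 and a range from -0.38 to 0.09, beside a median of about 0 over all probe sets. The largest difference was that of Cyp51, a lanosterol demethylase and known SREBP2 target, at -0.38 (SE 0.140). Idi1, the isopentenyl diphosphate isomerase, lay at -0.30 (SE 0.154), and Sc5d lay at -0.30 (SE 0.119). Cyp51 read 5.20, 6.04 and 5.62 in control saline arrays and 5.01, 5.39 and 5.17 in labelled mutant saline arrays, and these groups overlapped. With kainate it read 5.22, 5.44 and 5.35 in control and 4.80, 5.15 and 5.11 in labelled mutant arrays. These did not overlap, as was so for 10.7% of all probe sets. For averaged genotype none of the 7 passed by limma after adjustment. An unadjusted p under 0.05 was found for 2 of them, beside 410 of all tested probe sets. With the replicate number as a block the adjusted p was 0.0576 for Cyp51, 0.156 for Sc5d and 0.379 for Idi1, and none passed. With 3 arrays per group a missed threshold does not show a lack of change, so the lower side of this list is given as a count. After kainate 5 of the 7 lay below 0, with a median of -0.20, beside 48.3% of all probe sets below 0.

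Sterol sensing and uptake was represented by 9 of 23 genes, with a median genotype difference of 0 and a range from -0.42 to 0.12. Insig1, the sterol-regulated anchor that holds SREBP in the endoplasmic reticulum, lay at -0.42 (SE 0.242) and did not pass. It read 6.14, 6.56 and 6.12 in control saline arrays against 5.85, 6.11 and 5.41 in labelled mutant saline arrays. The groups only just did not overlap there, at 6.12 against 6.11, and 8.81% of all probe sets separated with saline. After kainate the spread was wider, with 6.31, 5.88 and 5.44 in control arrays and 6.27, 4.89 and 5.42 in labelled mutant arrays.

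For kainate, 2 of the 3 list genes called lower with the block belonged to the sensing list. These 3 of 50 (6%) stand beside 7.63% of all probe sets called, so nothing is read from their list. Rnf139, a sterol-regulated ubiquitin ligase of the endoplasmic reticulum, differed by -0.51 (SE 0.0963), which missed the threshold in limma (adjusted p = 0.060) and passed with the block (adjusted p = 0.0128). It read 9.14, 9.26 and 9.16 in control saline arrays and 8.88, 8.57 and 8.71 in control kainate arrays, with no overlap. In labelled mutant arrays it read 9.06, 9.19 and 8.86 with saline and 8.71, 8.37 and 8.35 with kainate, again with no overlap. The share of all probe sets that separate between kainate and saline was not counted, so nothing is read from this. Erlin1, a membrane protein of the endoplasmic reticulum, differed by -0.48 (SE 0.163, limma adjusted p = 0.226, and 0.0372 with the block).

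Coenzyme Q synthesis, the pathway of Coq2, was represented by 7 of 12 genes. Their genotype differences ran from -0.13 (Coq6, SE 0.138) to 0.27 (Coq8a, SE 0.174) with a median of 0.05, beside -0.94 for Coq2. For kainate 6 of the 7 lay above 0 with a median of 0.18, beside 48.3% of all probe sets below 0 and a median of 0.01. Coq5, the ring methyltransferase, lay at -0.52 (SE 0.208, limma adjusted p = 0.285). It was called lower with the block (adjusted p = 0.0351), where 7.63% of all probe sets were called. Coq10b, a START-related coenzyme Q binding protein, lay at 0.36 (SE 0.215) and did not pass by its brighter probe set. Over arrays numbered 2 and 3 alone that probe set lay at 0.03. The other Coq10b probe set lay at 0.47 over all arrays.

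The other lists stayed close to the median of all probe sets for genotype. Of the genes of cobalamin and propionate metabolism, the pathway of Mmab, 4 of 14 were tested. Their genotype differences lay between -0.15 (Pcca, a propionyl-CoA carboxylase subunit, SE 0.136) and 0.13 (Lmbrd1, a lysosomal cobalamin exporter, SE 0.171), beside 1.46 for Mmab. Other START domain genes (5 of 14 tested) ran from 0.03 to 0.07, beside -0.52 for Stard4. Sterol transport and storage (12 of 28) ran from -0.19 (Nceh1, SE 0.159) to 0.23 (Osbp, SE 0.608) with a median of -0.07. Other isoprenoid use (7 of 14) ran from -0.27 (Rabggta, SE 0.105) to 0.14 with a median of -0.10.

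**Figure D4:**
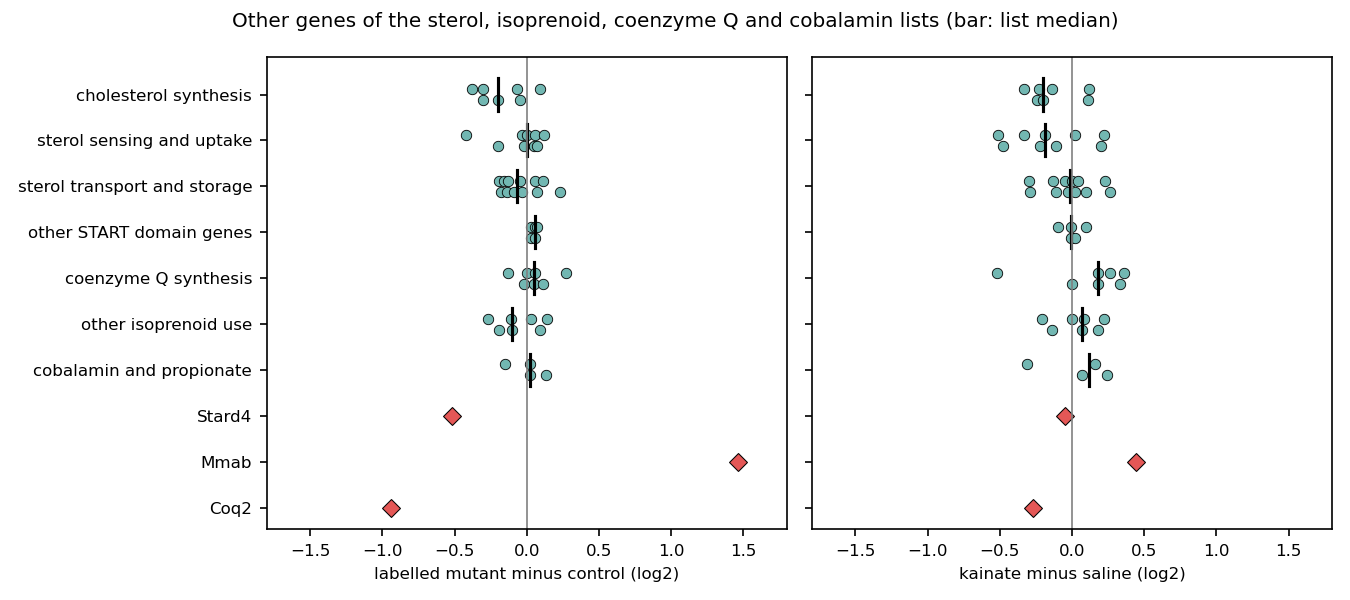
Log2 difference of each tested list gene (circles, 1 row per list, with a bar at the list median) and of Stard4, Mmab and Coq2 (diamonds) for genotype averaged over treatments on the left and for kainate averaged over genotypes on the right. For genotype the list genes lie between -0.42 and 0.27, and the members lie at -0.52, 1.46 and -0.94, drawn from the arrays on which these genes were chosen.

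Genes whose arrays ran most like the members were sought among 5922 tested probe sets with 1 symbol, by Pearson's r over the 12 arrays after the mean of each array number was taken off. The arrays share their genotype and treatment groups, so r is a description. It still carries the genotype difference, so the genotype differences printed beside r are not a separate result. For Stard4 these were Tceal1 (r = 0.965), Tmem200a (0.954) and Snhg4 (0.947), with genotype differences of -0.57, -0.83 and -0.44. For Mmab they were Cyp4f14 (0.964), Tmem219 (0.955) and Thbs4 (0.947), with 0.54, 0.92 and 1.44. For Coq2 they were Celf2 (0.933), Gm20300 (0.930) and Nt5c (0.920), with -0.45, -0.67 and -0.32. None of the 9 belongs to the lists above. Tceal1 ran from 5.49 to 5.80 in control and from 4.90 to 5.19 in labelled mutant arrays, and Thbs4, a matricellular protein gene, from 4.03 to 5.51 and from 5.32 to 6.77.

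Markers of other cell types were read beside these differences. Their lists were set with earlier results of these data known, so the counts and calls below are a description. All 4 tested microglial genes of 14 listed lay above 0 in the averaged genotype comparison, with a median of 0.62, and Plek passed at 1.24 (SE 0.200, limma adjusted p = 0.042). With the replicate number as a block 3 of the 4 passed, beside 2.32% of all probe sets. Their mean level ran from 5.50 to 5.88 in control arrays and from 5.89 to 6.57 in labelled mutant arrays. Of 10 tested astrocyte genes of 15 listed, 9 lay above 0 with a median of 0.19, and none passed by limma. With the block 3 of the 10 were higher, namely Aqp4 (0.44, adjusted p = 0.0196), Ednrb (0.36, adjusted p = 0.0198) and Mlc1 (0.36, adjusted p = 0.024). The astrocyte mean level ran from 8.77 to 9.35 in control arrays and from 8.97 to 9.64 in labelled mutant arrays. The 5 tested neuronal genes of 13 had a median of 0.01 and ran from -0.40 (Neurod2) to 0.27 (Gad2). Medians were -0.16 for the 3 oligodendrocyte genes of 17, 0.07 for the 3 endothelial genes of 10 and 0.24 for the 2 choroid plexus genes of 10. None of these passed for genotype, with or without the block. In pooled tissue, a change in the number of cells of a type and a change in RNA per cell cannot be told apart, and the part of these cells in the differences of Stard4, Mmab and Coq2 was not tested. The 3′ minus 5′ signal of the Gapdh control ran from -0.39 to -0.03 in control arrays and from -0.42 to -0.12 in labelled mutant arrays. That of the actin control ran from 1.51 to 1.82 and from 1.44 to 1.81, so both controls overlapped between genotypes.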

How the data were processed

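The deposited table held 1 log2 value per probe set and array, for which the submitters' processing notes name GCRMA and R 2.4.1. The method estimates background from probe sequence, which affects values near background most. Its settings are unknown here, and the log2 scale was judged from the deposited values. The 66 control probe sets were left out. A platform annotation gave 10581 of 12411 probe sets 1 symbol, 178 several and 1652 none, with names checked by Entrez identifier against RefSeq.

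Probe sets over 4 in at least 3 arrays were fitted with limma 3.58.1 in R 4.3.3 (lmFit with 1 mean per group over 12 arrays, eBayes with an intensity trend) and adjusted by Benjamini-Hochberg. The calculation was tested on simulated data. Same-numbered arrays of different groups deviated together in all 18 pairs (r from 0.361 to 0.881). Differences are therefore also given by array number, and the number was a block in an alternative fit. The printed standard errors and intervals come from fits that leave this pairing out. Arrays numbered 2 and 3 of different groups also deviated together (r from 0.309 to 0.583), and arrays numbered 1 stood apart, so the pairing of numbers 2 and 3 is less certain. The second Stard4 probe set was taken from the fit without the filter. Lists and members were chosen with earlier results of these data known. List genes were named if called, or by the 2 largest differences for averaged kainate and averaged genotype. Sc5d was named as well, since its rounded genotype difference equalled that of Idi1. The 3 most like probe sets were named for each member. The labels call replicates biological, and each is a pool of 3 animals. Alternatives were the block, scaling, filters, no trend, fewer groups, arrays numbered 2 and 3, and leaving out each array.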

Additional observations from a re-analysis of the deposited data

How the results depend on the processing

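Under the 21 alternative fits the genotype differences of the 3 members kept their sign with saline, with kainate and averaged. Their 418 differences in all moved by less than the SD between single arrays, a wide measure that says little about the small kainate differences, some of which changed sign. Calls depended on the setting. For genotype averaged over treatments 1 member was called; 3 were with the replicate number as a block, with or without quantile normalization, 2 with arrays numbered 2 and 3 alone, and 0 to 1 when 1 array was left out. With arrays numbered 2 and 3 alone, 2 were called with saline, 2 with kainate, and 1 (Mmab) for kainate in control and 1 for averaged kainate. Without array number 1 the fit had fewer arrays and called more probe sets, for instance 1412 against 26 for averaged kainate. The shares over all probe sets for its other comparisons are not given here, so nothing is read from these counts.

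For the 50 list genes, averaged kainate called 0; it was 3 with the block, with or without quantile normalization, 1 each with quantile normalization, the stricter filter or no trend, 15 with arrays numbered 2 and 3 alone, and 0 to 1 when 1 array was left out. With arrays numbered 2 and 3 alone 3 were called for kainate in control and 4 in labelled mutant arrays. That fit also called more of all probe sets, as given above. No shares over all probe sets stand beside the list counts of this paragraph, so nothing is read from them. Over all probe sets the block raised the calls for averaged genotype from 16 to 147, and leaving out 1 array gave 3 to 16. Centring gave 10 and quantile normalization 25. The causes of these shifts were not tested. Mmab and Stard4 have no value under the stricter filter, over 6 in 3 arrays, which they did not reach. The number of arrays and the low signal of Mmab and of the second Stard4 probe set limit the precision.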
